A study of Mus musculus with 6 samples.

Results

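The 9 genes described here encode proteins that assemble, remodel or take up lipoproteins, or that inhibit a lipase. The lipases are hepatic lipase (Lipc), endothelial lipase (Lipg) and lipoprotein lipase (Lpl). Among the others are lecithin-cholesterol acyltransferase (Lcat), phospholipid transfer protein (Pltp) and microsomal triglyceride transfer protein (Mttp). Also included are angiopoietin-like 4 (Angptl4), the VLDL receptor (Vldlr) and the cholesterol exporter Abca1. The 9 genes were taken by name from the 23415 genes of the authors' deposited table, and all 9 were found in it. The authors tested 8 of the 9, among 11515 genes tested in all. Vldlr carries the mark NOTEST, given to 11734 genes, none of which exceeded 0.679 FPKM.

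Liver RNA was compared between C57BL/6 mice that lack alkaline sphingomyelinase (3 libraries, animals 82, 84 and 85) and wildtype mice (3 libraries, animals 81, 83 and 90). The genotype was read from the letter K or W that opens each sample name. Age, sex, feeding state and the way the deletion was made are not given in the sources used here. The authors deposited 1 expression value for each genotype, in FPKM (fragments scaled for transcript length and sequencing depth), so the spread between mice cannot be shown and the depth of each library is unknown. Each ratio is the knockout value over the wildtype value on the log2 scale, given with the standard error (SE) implied by the authors' test statistic, and intervals are 95% intervals from that same SE. "Rose" and "fell" are used for genes with a q-value of the authors under 0.05.

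Enpp7, which encodes the missing enzyme, was listed at 0.0541 FPKM in wildtype and 0.141 FPKM in knockout livers and was not tested, so it does not check the genotype labels. The samples are labelled as liver, but the design text of the series speaks of intestinal tissue. Hepatocyte transcripts were abundant in both groups, with 11 markers summing to 37216 FPKM in wildtype and 48513 FPKM in knockout livers. The sum over all genes listed was also higher in the knockout group, at 646306 FPKM against 564749 FPKM. Apoa1 was the highest of the 11; the list's other marker, Alb, carries the mark HIDATA, for too many reads, and has no value. The 12 intestinal epithelium markers summed to 179 and 181 FPKM, nearly all of it from Apoa4, which mouse liver also makes (98.6 and 86.5 FPKM), Fabp2 (54.7 and 42.9 FPKM) and Tff3 (23.9 and 48.8 FPKM, q = 0.0775 in the authors' deposited table). Other markers on that list were lower, such as the villus gene Vil1 at 0.443 and 0.738 FPKM and Cdx2, a transcription factor of the intestinal epithelium, at 0.0333 and 0.0290 FPKM. Markers of neutrophils were higher in the knockout group (9 listed genes, 107.9 FPKM in sum against 5.53 FPKM in wildtype livers), with S100a8, S100a9, Ngp and Ltf risen. Those of Kupffer cells were higher too (12 genes, 591 against 381 FPKM), with Marco and C1qa risen. Of the 6 bile duct markers, all tested, Spp1 rose and the other 5 did not pass. Over all tested genes 1.08% passed.

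Lipoproteins leave the liver and gut loaded with triglyceride and are then reworked by lipases bound to the vessel wall. Lipoprotein lipase, hepatic lipase and endothelial lipase belong to 1 gene family: the first clears triglyceride from VLDL and chylomicrons, the second acts on remnants and HDL in the liver, and the third prefers the phospholipids of HDL. LCAT, PLTP and ABCA1 build and reshape HDL, and MTP loads lipid onto nascent apolipoprotein B particles. Sphingomyelin, the substrate of alkaline sphingomyelinase, is a phospholipid of the lipoprotein surface.

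Endothelial lipase mRNA fell in the knockout livers, and it was the only one of the 8 tested genes to pass. Lipg stood at 12.4 FPKM in the wildtype group and 4.94 FPKM in the knockout group. Its log2 ratio was -1.32 ± 0.25 (SE; q = 4.47e-05 in the authors' deposited table), a level 2.50-fold lower with an interval of 1.78-fold to 3.52-fold. Of all genes tested, 1.08% passed in either direction and 0.504% passed as lower (58 genes, beside 66 higher), and the share among the 8 was 1 gene. Scaling the groups to an equal FPKM sum turned the split over all tested genes into 49 higher and 140 lower.

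Among the 58 genes that fell, Lipg had the 15th largest fall and the 11th smallest p. Only 0.271% of the tested genes with a finite ratio had a lower ratio. Lipg is also on the authors' short deposited list of 95 differential genes, whose members are those that passed with an absolute log2 ratio of at least 1; none of the other 8 genes is on it. Lipg lies on chromosome 18 at 74939322 to 74961263 (mm10), on the minus strand. GENCODE annotates 2 transcripts there, the longest with 10 exons. The 2 tested genes within 50 kb of it did not pass, with the ribosomal protein gene Rpl17 at 374 FPKM in both groups and BC031181 at 78.3 FPKM in the knockout group against 70.0 FPKM in the wildtype group.

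Endothelial cells and hepatocytes both make endothelial lipase, and in whole-liver RNA fewer cells of a type and less RNA per cell cannot be told apart. The 10 markers of the sinusoidal endothelium summed to 136 FPKM in wildtype and 130.1 FPKM in knockout livers. None of the 10 passed, 1 had an unadjusted p under 0.05, none was at 0, and 8 of their 10 ratios were below 0 with a median of -0.15. Over all tested genes 1.08% passed, 5.29% had an unadjusted p under 0.05 and 50.1% of ratios were below 0. Ehd3, the marker with the unadjusted p under 0.05, was at 16.0 FPKM in wildtype and 10.96 FPKM in knockout livers (a log2 ratio of -0.54 ± 0.23), and Clec4g, the most abundant of the 10, at 50.3 and 54.4 FPKM. The part of these cells in the fall of Lipg was not tested.

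**Figure D1:**
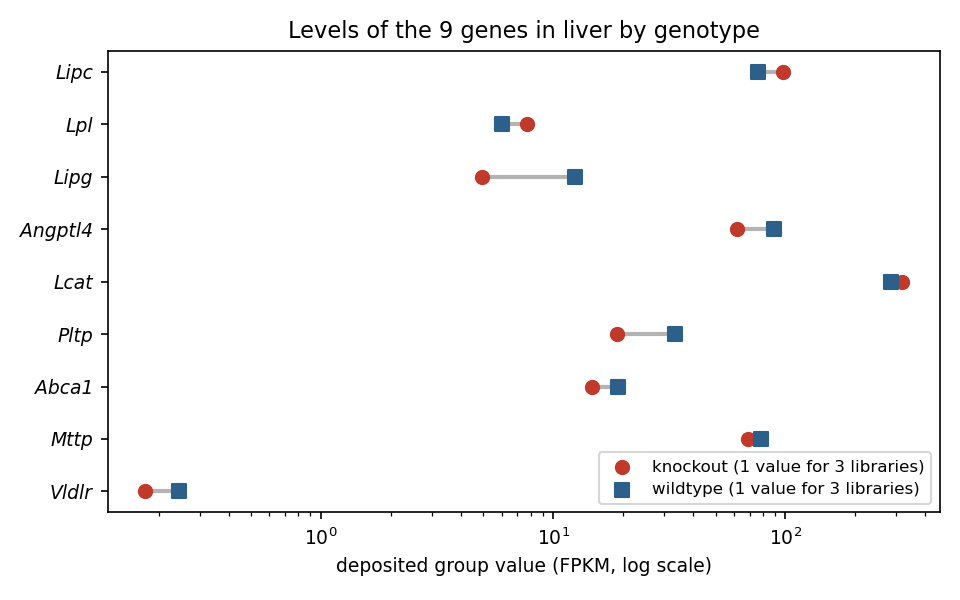
Deposited group value in FPKM (log axis) of the 9 genes, knockout as red circles and wildtype as blue squares, each a single value for 3 libraries with no error bar. Lipg shows the widest gap, from 12.4 FPKM in the wildtype group to 4.94 FPKM in the knockout group.

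Hepatic lipase, the main lipase of the liver, did not pass. Lipc stood at 76.4 FPKM in the wildtype group and 97.4 FPKM in the knockout group, a log2 ratio of 0.35 ± 0.22 with an interval from -0.09 to 0.79. Lipc lies on chromosome 9 at 70798128 to 70934808. The interval leaves room for a level up to 1.73-fold higher and for no difference.

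Lipoprotein lipase, a gene chiefly of fat, muscle and macrophages, also did not pass. Lpl was at 6.05 FPKM in the wildtype group and 7.71 FPKM in the knockout group, a log2 ratio of 0.35 ± 0.24 with an interval from -0.13 to 0.83. It lies on chromosome 8 at 68880555 to 68906932. Of the 12 Kupffer cell and macrophage markers, all were tested and had ratios above 0, and none was at 0. Over all tested genes, 50.1% of ratios were below 0. Among the 12, 2 rose, where 1.08% of all tested genes passed in either direction. An unadjusted p under 0.05 was held by 9 of the 12, against 5.29% of all tested genes. The part of these cells in the Lpl value was not tested. The adipose genes Adipoq and Plin1 were listed at 0 in the knockout group and at 0.0611 and 0.0553 FPKM in the wildtype group, and Lep was at 0 in both. Other adipose markers were listed at higher values. Fabp4 was at 17.8 FPKM in wildtype and 17.9 FPKM in knockout livers, and Adrb3 at 1.97 and 3.36 FPKM. Cidec was at 1.76 and 1.41 FPKM, and Cfd at 0.801 and 0.163 FPKM. The 8 adipose markers summed to 1768 FPKM in knockout and 2320 FPKM in wildtype livers, nearly all of it Car3, a carbonic anhydrase that mouse hepatocytes also make, at 1745 and 2297 FPKM.

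All genes listed summed to 564749 FPKM in the wildtype group and 646306 FPKM in the knockout group. The 3 lipases together summed to 94.8 FPKM in the wildtype group and 110.0 FPKM in the knockout group. Hepatic lipase held 80.6% of that sum in the wildtype group and 88.5% in the knockout group, and endothelial lipase held 13.0% and 4.49%. Lipoprotein lipase held 6.38% and 7.01%. Endothelial lipase was thus 2.04 times the level of lipoprotein lipase in wildtype livers and 0.640 times its level in knockout livers. The intervals of the Lipg ratio (-1.82 to -0.83) and of the Lipc and Lpl ratios do not overlap; the difference between genes was not tested.

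Angptl4, a secreted inhibitor of lipoprotein lipase that fasting induces, was lower by an amount that did not pass the adjusted threshold. It stood at 89.4 FPKM in the wildtype group and 61.9 FPKM in the knockout group, a log2 ratio of -0.53 ± 0.23 with an interval from -0.98 to -0.08. Its unadjusted p was 0.0212 and its q 0.629 in the authors' deposited table. Lipg and Angptl4 were the 2 of the 8 tested genes with an unadjusted p under 0.05, against 5.29% of all tested genes. With the groups scaled to an equal sum the ratio of Angptl4 was -0.72 and its q 0.0857. Angptl4 lies on chromosome 17 at 33774900 to 33781575. Of the 4 tested genes within 50 kb, 0 passed, beside 1.08% of all tested genes.

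**Figure D2:**
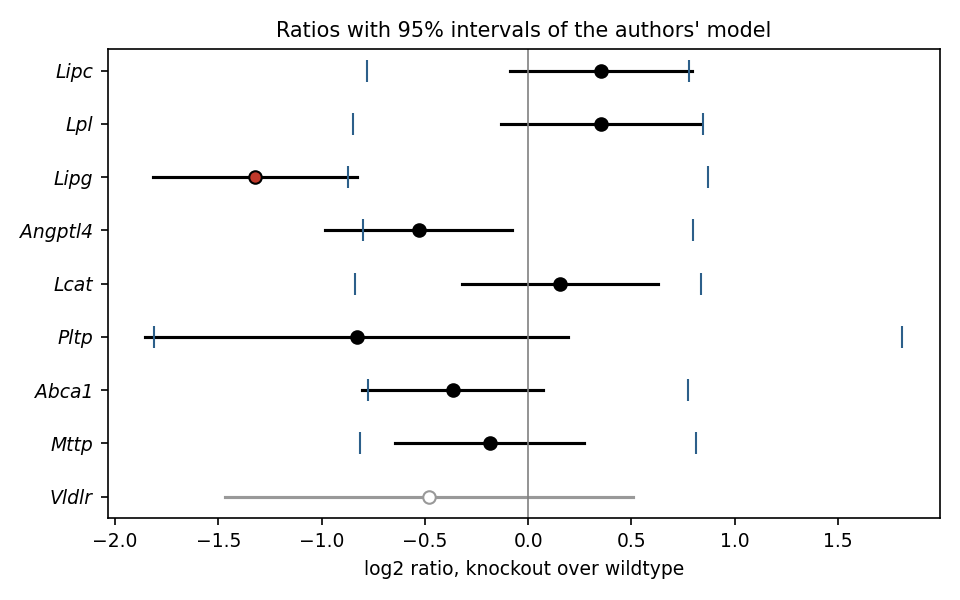
Log2 ratio of knockout over wildtype with 95% intervals from the SE of the authors' model, filled points for tested genes and an open grey point for Vldlr, which was not tested. Blue ticks mark the ratio each tested gene would have needed to pass; only Lipg, in red, lies beyond its tick at 0.87 on the log2 scale.

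Lcat, Abca1 and Pltp, which build and reshape HDL, did not pass, where 1.08% of all tested genes passed. Lcat, the plasma enzyme that esterifies HDL cholesterol and is made mostly by hepatocytes, was the most abundant of the 9 genes. Its level was 285 FPKM in the wildtype group and 317 FPKM in the knockout group, a log2 ratio of 0.15 ± 0.24 with an interval from -0.32 to 0.63. The sign of this ratio turned with the groups scaled to an equal sum (-0.042). Lcat lies on chromosome 8 at 105939551 to 105943402, within 50 kb of 5 other tested genes, none of which passed.

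Abca1, which loads cholesterol and phospholipid onto lipid-poor apolipoprotein A-I, did not pass. It stood at 19.0 FPKM in the wildtype group and 14.8 FPKM in the knockout group, a log2 ratio of -0.37 ± 0.22 with an interval from -0.80 to 0.07. Abca1 lies on chromosome 4 at 53030789 to 53159895. A level 1.75-fold lower and no difference both lie within its interval.

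Pltp, which moves phospholipids between lipoproteins, had the second lowest ratio of the 8 but a wide error. It stood at 33.4 FPKM in the wildtype group and 18.8 FPKM in the knockout group, a log2 ratio of -0.83 ± 0.52 with an interval from -1.85 to 0.19, and it did not pass (q = 0.9998 in the authors' deposited table). Only 1.21% of tested genes had a lower ratio. The SE was large for such a level: of 1417 other tested genes within 1.5-fold of its mean of 25.1 FPKM, the median SE was 0.23 and 97.4% had a smaller one. Among those genes 35 had an absolute ratio of at least that of Pltp, and 21 of the 35 passed, beside 1.08% of all tested genes. Passing took an absolute ratio of about 3.46 SE, so genes picked for a large ratio pass often by construction. The count describes those 35 genes and not Pltp.

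The deposited locus of Pltp, chromosome 2 at 164830730 to 164857708, is the same as that of Ctsa, the lysosomal protective protein cathepsin A, and of Neurl2. In GENCODE, Pltp lies on the minus strand and Ctsa on the plus strand, and they share 495 exonic bases, 19.3% of the annotated exonic bases of Pltp. Ctsa stood at 50.0 FPKM in the wildtype group and 53.5 FPKM in the knockout group and did not pass. Whether the libraries mark strand is not stated. Reads from the bases that Pltp and Ctsa share may therefore have been split between them, and the Pltp value is uncertain to that extent. The part of the shared bases in the wide error was not tested.

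**Figure D3:**
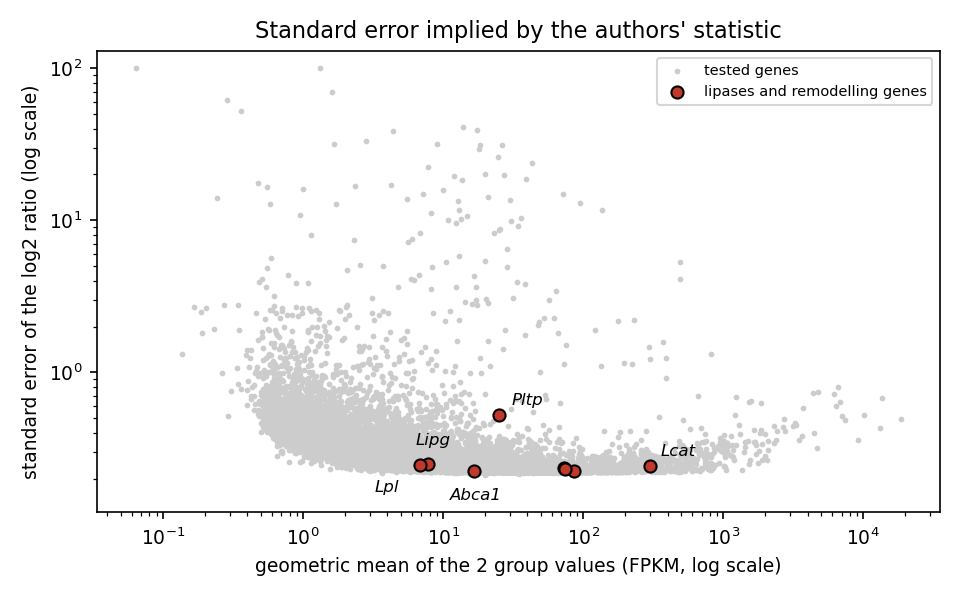
SE of the log2 ratio against the geometric mean of the 2 group values, both on log axes, for tested genes with a finite ratio (grey) and for the 8 tested genes described here (red). Pltp lies at 0.52, above the other 7, which lie between 0.22 and 0.25.

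Mttp, the endoplasmic reticulum protein that apolipoprotein B needs for secretion, did not pass. It stood at 78.3 FPKM in the wildtype group and 68.8 FPKM in the knockout group, a log2 ratio of -0.19 ± 0.23 with an interval from -0.65 to 0.27. Mttp lies on chromosome 3 at 138089855 to 138143388. The interval runs from a level 1.56-fold lower to one 1.21-fold higher. In GENCODE, Mttp shares 7.36% of its exonic bases with Trmt10a on the opposite strand, which stood at 1.06 FPKM in wildtype and 1.03 FPKM in knockout livers.

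Vldlr, a receptor of triglyceride-rich lipoproteins best known from heart, muscle and fat, was near the floor in both groups. It was listed at 0.245 FPKM in the wildtype group and 0.175 FPKM in the knockout group and was not tested. The log2 ratio of -0.48 ± 0.50 is smaller than its error. Vldlr lies on chromosome 19 at 27217020 to 27254231.

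In order of level, the wildtype group ran from Lcat through Angptl4, Mttp, Lipc, Pltp, Abca1, Lipg and Lpl to Vldlr. The knockout group ran from Lcat through Lipc, Mttp, Angptl4, Pltp, Abca1, Lpl and Lipg to Vldlr. Lcat exceeded Lpl 47.2-fold in the wildtype group and 41.1-fold in the knockout group. Lipg moved from percentile 65.9 of the tested genes in the wildtype group to percentile 43.6 in the knockout group, while Lcat stayed at 97.2 and 97.3. The orders differ by 2 exchanges, that of Lipc with Angptl4 and that of Lipg with Lpl. No error is given for a single group value, so neighbours in either order cannot be separated by a test.

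Over the 8 tested genes 5 ratios were below 0 and 3 above, with a median of -0.28, beside a median of -0.0012 over all tested genes, of which 50.1% were below 0. The power to call was limited. With the SE of each gene, the ratio needed to pass lay between 0.77 (Abca1) and 0.87 (Lipg) on the log2 scale for 7 of the 8, and at 1.81 for Pltp. Observed differences smaller than about 1.71-fold to 1.83-fold in those 7 genes could therefore not have been called. This limit applies to the observed ratio, not to the true difference.

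**Figure D4:**
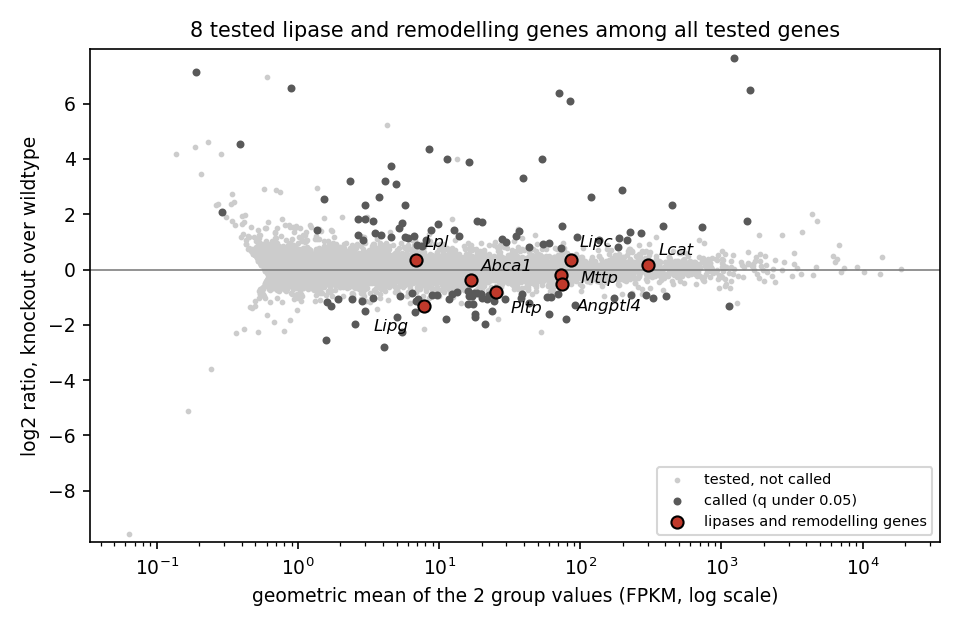
Log2 ratio of knockout over wildtype against the geometric mean of the 2 group values in FPKM (log axis) for the tested genes with a finite ratio; genes that passed are dark grey and the 8 genes described here red. Lipg lies among the genes that fell, at -1.32, and the other 7 lie within the cloud of genes that did not pass or at its lower edge.

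On lists of related genes, Lbp, a relative of Pltp, rose and Ces1d, another lipase, fell. Of 85 genes on 8 lists of the same pathways or the same protein fold, 73 were tested. Of these, 1 rose, 1 fell and 71 did not pass, with a median log2 ratio of -0.0079. Lbp, the gene that rose, came from the list by fold, where it was the only gene tested. The 2 that passed are 2.74% of the 73, beside 1.08% of all tested genes, and the 5 with an unadjusted p under 0.05 are 6.85%, beside 5.29%. These shares only describe the lists, which were chosen with earlier results of these data known. The list of lipase cofactors, chaperones and inhibitors had 13 tested genes, 0 of them called and 1 at an unadjusted p under 0.05, with a median of 0.0070. Gpihbp1, which anchors lipoprotein lipase to capillaries, was at 23.9 FPKM in wildtype and 24.0 FPKM in knockout livers, and Lmf1, the chaperone that folds the 3 lipases, at 29.4 and 30.0 FPKM.

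The 1 gene of that list with an unadjusted p under 0.05 was Angptl8 (Gm6484 in the table), an insulin-induced inhibitor of lipoprotein lipase. It stood at 82.6 FPKM in the wildtype group and 44.4 FPKM in the knockout group, a log2 ratio of -0.90 ± 0.28 with q = 0.0967 in the authors' deposited table. Its deposited locus is that of Dock6, within which it lies, and Dock6 stood at 3.70 and 3.49 FPKM.

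Of 6 tested genes on the list of other lipases, 1 fell, where 0.504% of all tested genes fell. Ces1d, a carboxylesterase that hydrolyses triglyceride in the liver, went from 402.6 FPKM in the wildtype group to 211 FPKM in the knockout group (a log2 ratio of -0.93 ± 0.26; in the authors' deposited table q = 0.0428). The median of that list was -0.23, and the pancreatic lipase genes on it were too low to be tested. The single tested relative of Pltp in the lipid transfer fold, Lbp, which binds bacterial lipopolysaccharide and is an acute phase protein, rose from 22.7 to 60.2 FPKM (a log2 ratio of 1.41 ± 0.24; in the authors' deposited table q = 1.00e-06).

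The remaining lists held 0 calls. Over all tested genes 1.08% passed and 5.29% had an unadjusted p under 0.05, so lists this short would mostly hold 0 calls at that share. HDL formation and cholesterol efflux had 14 tested genes and a median of 0.09, with 0 at an unadjusted p under 0.05 and Apof, an apolipoprotein of HDL and LDL, at 494 FPKM in the knockout group against 360 FPKM in the wildtype group. VLDL assembly had 12 tested genes and a median of -0.04, with 1 at an unadjusted p under 0.05. The gene in question was Pla2g12b, which takes part in VLDL secretion, at 59.8 FPKM in the knockout group against 35.8 FPKM in the wildtype group (0.74 ± 0.23, q = 0.102 in the authors' deposited table). Lipoprotein receptors had 11 tested genes and a median of 0.10, with 0 at an unadjusted p under 0.05, and Stab2, a scavenger receptor, had the smallest p.

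Abca1 and Pltp are known targets of the liver X receptors, and Angptl4 and Vldlr of the PPARs. Of all tested genes, 1.08% passed and 5.29% had an unadjusted p under 0.05. On the liver X receptor list 10 genes were tested, 0 passed and 1 had an unadjusted p under 0.05, with a median of 0.04. This was Scd1, a fatty acid desaturase, at 1964 FPKM in the wildtype group and 847 FPKM in the knockout group (-1.21 ± 0.45, q = 0.299 in the authors' deposited table). On the PPAR list 9 genes were tested, 0 passed and 0 had an unadjusted p under 0.05, with a median of -0.18. Cpt1a, the entry enzyme of mitochondrial fatty acid oxidation, had the smallest p there, at 95.5 FPKM in the wildtype group and 72.3 FPKM in the knockout group.

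**Figure D5:**
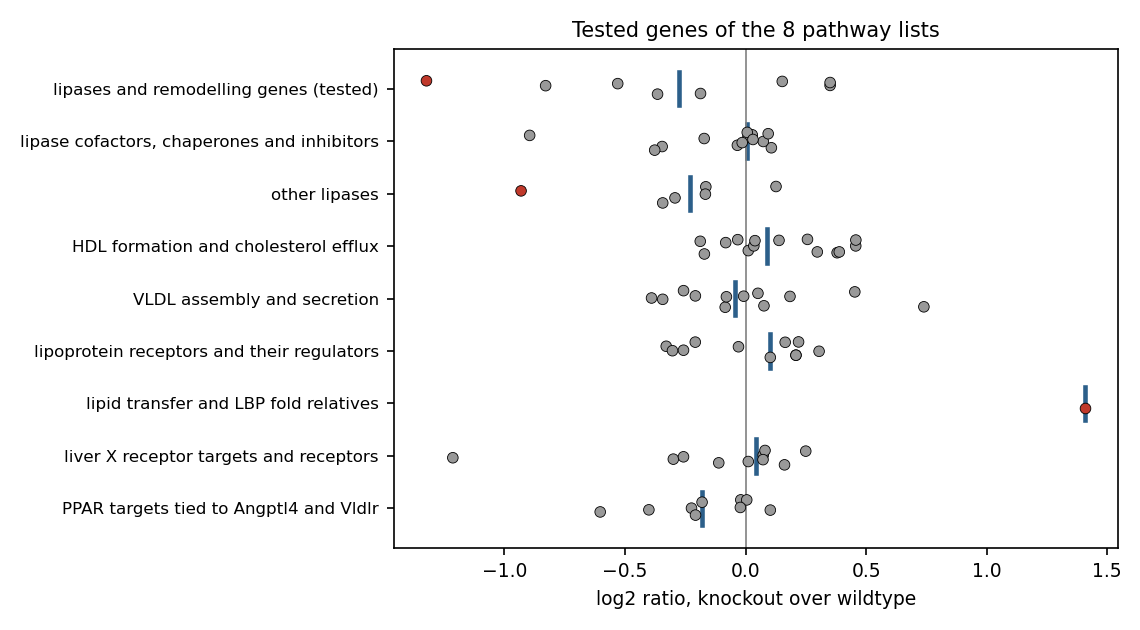
Log2 ratio of each tested gene on the 8 pathway lists and of the 8 tested lipase and remodelling genes (top row); red points passed, grey points did not, and the blue bar is the median of the row. Lipg, Ces1d and Lbp are the red points, at -1.32, -0.93 and 1.41.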

How the data were processed

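Alignment with Bowtie2 to the mouse build mm10 is recorded, without a version, per the submitters' processing notes. Libraries were made with a TruSeq RNA kit from 1 ug of RNA and read as single ends of 50 bases, per the labels' protocols and the series' design text. No source used here names the program behind the tables; their columns are those Cuffdiff writes, and on that ground the authors' deposited values were treated as FPKM. Per the file headers, the deposited log2 ratio has wildtype over knockout, and its sign was reversed. The deposited test statistic is a score that matches a standard normal z (largest difference in p 2.63e-06), and the authors' q-values equal Benjamini-Hochberg values computed from the deposited p-values over 11515 tested genes. The SE of a ratio is the ratio divided by that z.

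Both files hold 1 value per group, so limma on values per mouse, planned for that case, was replaced by the fallback of the same plan, the deposited q under 0.05. The SE comes from the authors' model, not from an observed spread, and no source says that the libraries came from separate mice beyond the animal numbers in the names. The table holds 0 columns of samples of other series. Of the tested genes, 59 are at 0 in 1 group and stayed out of medians.

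The 9 genes, the 8 pathway lists and the 11 marker lists were chosen with earlier results of these data known. From each pathway list the genes that passed were named, or else the gene with the smallest p, and from the marker lists the genes that passed and the highest hepatocyte and intestinal markers. All other list genes, and the neighbours of the 9 genes, were named after their values were seen. Older symbols were matched through RefSeq (GRCm38.p6). Starts are the deposited ones plus 1. Gene models are those of GENCODE release M21 on the same build. Alternatives were scaling to the same sum or upper quartile, quantile normalization, a minimum of 1 FPKM, pseudocounts of 1 and 0.5, and q under 0.1. The functions were tested on simulated data. Python 3.11.15, pandas 2.3.3 and scipy 1.17.1 were used.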

Additional observations from a re-analysis of the deposited data

How the results depend on the processing

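Lipg passed as lower under each of the 4 alternatives that give a q (same sum, same upper quartile, quantile normalization and a minimum of 1 FPKM in both groups), with q from 6.42e-07 to 5.66e-05, and its log2 ratio ran from -1.52 to -1.17 over all 6 alternatives, pseudocounts included. The count of called genes among the 8 tested was 1 in each, and 1 at q under 0.1. All of these q-values rest on the deposited SE or p, so the error estimate itself was not varied. Lcat turned from 0.15 to -0.042 with the groups scaled to an equal sum, which lowers every log2 ratio by 0.19, and the other 8 genes kept their sign wherever a value could be computed. That scaling raised the count of lower genes from 58 to 140 and moved the median over all tested genes to -0.20. Angptl4 ranged from -0.72 to -0.52 with q from 0.0857 to 0.671, Pltp from -1.02 to -0.80 and Abca1 from -0.56 to -0.34. Vldlr ran from -0.67 to -0.08, the last with a pseudocount of 1, since its level is under 1 FPKM. Leaving out each mouse in turn was not run, and no paired analysis was possible because the tables used here hold 1 value per group. Read depth is unknown, so no counting interval is given.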

Other observations

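A check of sequence shared with other genes bears on single values. Of the 50-base windows of the GENCODE transcripts of each gene, 0 occurred on either strand in a transcript of another gene for Lipg (of 4666), Lipc, Lcat, Angptl4, Vldlr and Abca1. For Lpl 1.40% of 10329 windows did, spread over 351 other genes. For Mttp 7.23% did, shared with Trmt10a and Gm43691, which overlap it on the opposite strand, and for Pltp 10.8%, all shared with Ctsa.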
